A study of Mus musculus with 4 samples.

Results

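The plasminogen activators and serpins described here were 7 genes of the 21090 in the RNA-seq table of 4 mouse mammary tumor cell lines, namely *Plau*, *Plat*, *Plaur*, *Serpine2*, *Serpinf1*, *Serpinh1* and *Serping1*. The members were chosen by name, and *Serpine2* was selected on its own values in these libraries, where it separated the parental from the vector control line and the exon 3 from the exon 2 knockout line. The levels of the members are therefore given as a description, and a count of members past the threshold of a test stands beside the share of all genes for reference only. All 7 were in the table. Mean expression of at least 1 RPKM (read counts divided by gene length in kilobases and by the library's total) was found for 6 of them, and *Serping1* fell below that level.

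By the paper's account, the lines were derived from the primary mammary tumor, metastatic to the lung, of a Pik3caH1047R;Trp53R270H;MMTV-Cre mouse. In such a mouse both mutant alleles depend on Cre driven by the mammary tumor virus promoter, and on that account all 4 lines share these alleles. The controls (n = 2) were the parental line and a vector control line. The knockouts (n = 2) were a line edited in exon 3 of *S100a4*, a small calcium-binding protein gene studied for its part in metastasis, and a line edited in exon 2, each with a lentivirus that carried Cas9 and a guide RNA. Infected cells were selected on puromycin. The paper does not describe separately how the vector control was made, so the controls may differ in infection and selection too. Each line gave 1 library, the sources do not say whether a line was a clone, and the titles name the exon 2 knockout as 308 cells and the other 3 lines as 307 cells, so that guide, line and cell number cannot be told apart. The labels do not say whether the 308 cells had the same origin as the 307 cells. If they did not, the exon 2 line has no matched control here. Reads in genes ranged from 14612091 in the exon 2 knockout to 20411619 in the parental line. *S100a4* itself measured 3576 RPKM (parental line), 4741 (vector control), 1136 (exon 3 line) and 1105 (exon 2 line), and it was lower in both knockouts (log2 change -1.88, SE 0.311) with a limma adjusted p of 0.0731, above the threshold of 0.05. RNA levels do not measure the knockout itself. For that the paper reports truncating mutations in nearly all *S100a4* transcripts of the edited lines and loss of the protein by Western blot. Of the cell type markers, the T cell list was at 0 in all 4 libraries, the endothelial list summed to 0.214 to 0.458 RPKM, the macrophage list to 3.58 to 13.2 RPKM with nearly all of it in *Cd68* and with *Emr1* and *C1qa* at 0, the epithelial list to 34.4 to 130 RPKM and the mesenchymal list to 2206 to 4713 RPKM. *Krt8* and *Krt18* made up nearly all of the epithelial sum, while *Epcam*, a defining epithelial gene, stood between 0.304 and 0.657 RPKM.

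Plasminogen activators are secreted serine proteases that cleave plasminogen into plasmin, a broad protease that digests fibrin and helps to clear extracellular matrix. *Plau* encodes the urokinase type, which works on the cell surface bound to the receptor encoded by *Plaur*, and *Plat* encodes the tissue type, which works mainly on fibrin. Serpins are a protein family named for serine protease inhibitors. *Serpine2* encodes protease nexin-1, which inhibits thrombin, urokinase and plasmin, and *Serping1* encodes the C1 inhibitor of complement. Other serpins inhibit no protease, among them the products of *Serpinf1* (pigment epithelium-derived factor, a secreted inhibitor of blood vessel growth) and *Serpinh1* (Hsp47, a chaperone of the endoplasmic reticulum that binds procollagen). In breast tumors the urokinase system is known for its link to invasion.

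The region before the RefSeq start of *Serpine2* and of *Serpinf1* is shown because, of the members with a mean of at least 1 RPKM, these 2 varied most among the 4 lines. The sequences are from RefSeq (GRCm38.p6), whose promoter table matched 4 of the 7 members, and they run 5′ to 3′ along the gene's strand and end at the base before the first GENCODE M21 exon that they meet. For *Serpinf1* this is where the annotated gene begins. For *Serpine2* it is the first exon of 1 of its protein-coding transcripts, while another annotated transcript begins upstream at base 79861180, so that the stretch lies within the bounds of the gene, in the first intron of that longer transcript. Capitals mark GGGCGG (GC box) in *Serpine2* and CCAAT in *Serpinf1*, each searched on both strands.
Serpine2, chr1:79858697-79858915, minus strand: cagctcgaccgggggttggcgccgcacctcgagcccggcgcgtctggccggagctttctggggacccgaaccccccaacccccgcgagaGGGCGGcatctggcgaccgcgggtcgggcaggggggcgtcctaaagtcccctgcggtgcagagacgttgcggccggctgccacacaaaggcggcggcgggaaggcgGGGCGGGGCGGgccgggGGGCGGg
Serpinf1, chr11:75422702-75422873, minus strand: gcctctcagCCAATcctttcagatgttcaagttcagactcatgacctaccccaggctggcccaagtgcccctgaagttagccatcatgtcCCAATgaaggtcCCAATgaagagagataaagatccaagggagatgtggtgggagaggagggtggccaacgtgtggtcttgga
The *Serpine2* stretch of 219 bases held 4 GC boxes, of which a pair shared a base, and 28.3% of 32851 promoters held at least 1 in the stretch at the same place. Its GC content was 77.6%, higher than in 97.6% of promoters (median 52.1%). The *Serpinf1* stretch of 172 bases held 3 CCAAT motifs, while 23.6% of promoters held at least 1 in the stretch at the same place. Its GC content was 52.9% against a median of 51.2%. Neither stretch held TATAAA, which 9.92% and 8.13% of promoters held in stretches of these lengths, *Serpine2* held no CCAAT, and *Serpinf1* held no GC box. These letters are a description and say nothing of which factors bind.

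*Serpine2* (ENSMUSG00000026249.10, GRCm38 chr1:79794197-79861180, minus strand) was high in the parental line and the exon 2 knockout and low in the vector control and the exon 3 knockout. It measured 35.1 RPKM (parental line, 1310 reads), 4.49 (vector control, 136 reads), 3.89 (exon 3 line, 109 reads) and 30.2 (exon 2 line, 811 reads). The high and the low level thus each occurred once among the controls and once among the knockouts. The parental line was 7.83-fold above the vector control (95% exact binomial interval 6.56 to 9.41), and the exon 2 knockout was 7.77-fold above the exon 3 knockout (6.36 to 9.58). These intervals cover the counting of reads only, and no line had a second library to show the spread within a line. The 2 low libraries could not be told apart by counting, with a ratio of 1.15 between the vector control and the exon 3 knockout (0.890 to 1.50). The 2 high libraries lay close together, the parental line at 1.16 times the exon 2 knockout (1.06 to 1.27). A difference in RNA per cell and a difference in the share of cells that express the gene cannot be told apart in such bulk libraries.

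The mean of *Serpine2* was 19.8 ± 21.7 RPKM in the controls and 17.1 ± 18.6 RPKM in the knockouts (SD, n = 2 each), and each SD was larger than its mean. On the log2(RPKM + 1) scale the knockouts differed from the controls by -0.19 (SE 0.860). Both knockouts were below the parental line, while the exon 2 knockout was 6.74-fold above the vector control (5.61 to 8.14). The sign of a knockout change in *Serpine2* therefore depended on the control and on the knockout taken, with a log2 change of 1.17 without the parental line, -1.55 without the vector control and 1.15 without the exon 3 line.

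**Figure D1:**
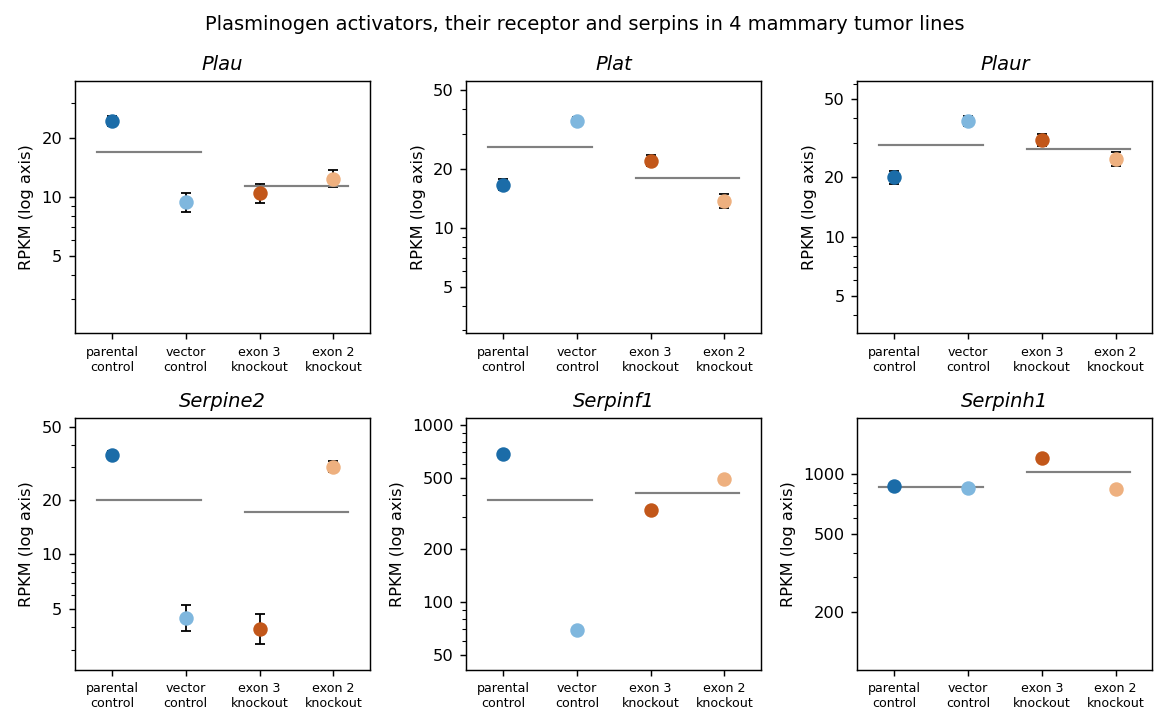
RPKM of the 6 members with a mean of at least 1, 1 point per library, on log axes that differ between panels. Error bars are 95% Wilson intervals of the read count, hidden where smaller than the point, and gray lines are group means. *Serpine2* is high in the parental line (35.1) and the exon 2 knockout (30.2), and *Serpinf1* is lowest in the vector control (69.1).

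*Plau* (ENSMUSG00000021822.3, chr14:20836660-20843385, plus strand) was highest in the parental line. It measured 24.3 RPKM (parental line), 9.38 (vector control), 10.4 (exon 3 line) and 12.4 (exon 2 line), from 310 to 988 reads. The parental line was 2.59-fold above the vector control (2.28 to 2.95), and both knockouts lay between the controls. The exon 3 knockout and the vector control, neighbors in the order of levels, were not separated by counting (ratio 1.11, 0.946 to 1.30), and the exon 2 knockout was 1.19 times the exon 3 knockout (1.02 to 1.39). Group means were 16.8 ± 10.5 RPKM in the controls and 11.4 ± 1.39 RPKM in the knockouts (SD, n = 2), with a log2 change of -0.39 (SE 0.414). The difference of the means was smaller than the SD of the controls, and without the parental line the log2 change was 0.25.

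*Plat* (ENSMUSG00000031538.6, chr8:22757727-22782844, plus strand) had its highest level in the vector control. It measured 16.6 RPKM (parental line), 34.9 (vector control), 22.0 (exon 3 line) and 13.7 (exon 2 line), from 608 to 1748 reads. The vector control was thus 2.11-fold above the parental line (1.95 to 2.28), opposite in direction to *Plau*. The exon 3 knockout was 1.60-fold above the exon 2 knockout (1.45 to 1.78), and the exon 2 knockout was the lowest, with the parental line at 1.21 times its level (1.09 to 1.34). The knockouts averaged 17.8 ± 5.84 RPKM against 25.7 ± 12.9 RPKM in the controls (SD, n = 2), a log2 change of -0.45 (SE 0.396), and the groups overlapped. Without the vector control the log2 change of *Plat* was 0.0658.

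*Plaur* (ENSMUSG00000046223.10, chr7:24462484-24475968, plus strand), the urokinase receptor gene, followed the order of *Plat* except that its lowest level was in the parental line. The parental line had 20.0 RPKM, the vector control 38.7, the exon 3 knockout 31.0 and the exon 2 knockout 24.7, from 583 to 1032 reads. The vector control was 1.93-fold above the parental line (1.75 to 2.13), and the neighbors in the order differed by 1.23 to 1.25 times. Both knockouts lay between the controls, and the means of 29.4 ± 13.2 RPKM and 27.9 ± 4.45 RPKM (SD, n = 2) differed by less than either SD, with a log2 change of -0.01 (SE 0.361).

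Between the activators, the ratio of *Plat* to *Plau* in RPKM was 0.682 (parental line), 3.72 (vector control), 2.11 (exon 3 line) and 1.11 (exon 2 line). Urokinase mRNA was the more abundant of the pair only in the parental line. Summed, the activators were less variable than either gene alone, at 40.9, 44.2, 32.4 and 26.1 RPKM in the same order.

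*Serpinf1* (ENSMUSG00000000753.15, chr11:75409769-75422701, minus strand) stood far below the other libraries in the vector control. It measured 683 RPKM (parental line, 26756 reads), 69.1 (vector control, 2200 reads), 329 (exon 3 line, 9681 reads) and 491 (exon 2 line, 13836 reads). In the parental line it ranked 62 among all genes by RPKM, and in the vector control 1608. The parental line was 9.89-fold above the vector control (9.47 to 10.3), and the exon 2 knockout was 1.49-fold above the exon 3 knockout (1.45 to 1.53). Both knockouts lay between the controls, 4.76-fold (exon 3) and 7.11-fold (exon 2) above the vector control, while the parental line was 2.08-fold above the exon 3 knockout and 1.39-fold above the exon 2 knockout. Group means were 376 ± 434 RPKM in the controls and 410 ± 115 RPKM in the knockouts (SD, n = 2), and the log2 change was 0.88 (SE 0.758). It was 2.52 without the parental line and -0.76 without the vector control, so that its sign too was set by the control taken.

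*Serpinh1* (ENSMUSG00000070436.12, chr7:99345376-99353239, minus strand) was the most abundant serpin and the steadiest of the 6 members. It measured 871.5 RPKM (parental line), 854 (vector control), 1215 (exon 3 line) and 847 (exon 2 line), from 23868 to 35757 reads, and ranked between 33 and 56 among all genes. The exon 3 knockout stood above the other 3 libraries and was 1.43-fold above the exon 2 knockout (1.41 to 1.46). The vector control and the exon 2 knockout were not separated by counting (ratio 0.992, 0.975 to 1.01). Means were 863 ± 12.6 RPKM in the controls and 1031 ± 260 RPKM in the knockouts (SD, n = 2), a log2 change of 0.23 (SE 0.312).

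*Serping1* (ENSMUSG00000023224.12, chr2:84765387-84775444, minus strand) had 1 read in the parental line (0.0211 RPKM) and 0 reads in the other 3 libraries. A count of 0 allows up to 3 reads, which is 0.0780 RPKM for the vector control, 0.0844 for the exon 3 line and 0.0881 for the exon 2 line. No difference was detectable at this depth.

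Within the controls, 3 of the 6 tested members were at least 2-fold lower in the vector control than in the parental line on the log2(RPKM + 1) scale (*Plau*, *Serpine2* and *Serpinf1*), as were 5.19% of the 10871 tested genes. The reverse held for 1 member, *Plat*, and for 3.34% of genes. Within the knockouts, *Serpine2* was the 1 member at least 2-fold lower in the exon 3 than in the exon 2 line, against 2.57% of genes, and 0 members were 2-fold higher, against 2.43% of genes. *Serpine2* was lower by 2-fold in both of these pairs, the pattern it was chosen for, which 54 genes (0.497%) had, itself included. These shares describe 1 library against 1 and have no replicate check.

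**Figure D2:**
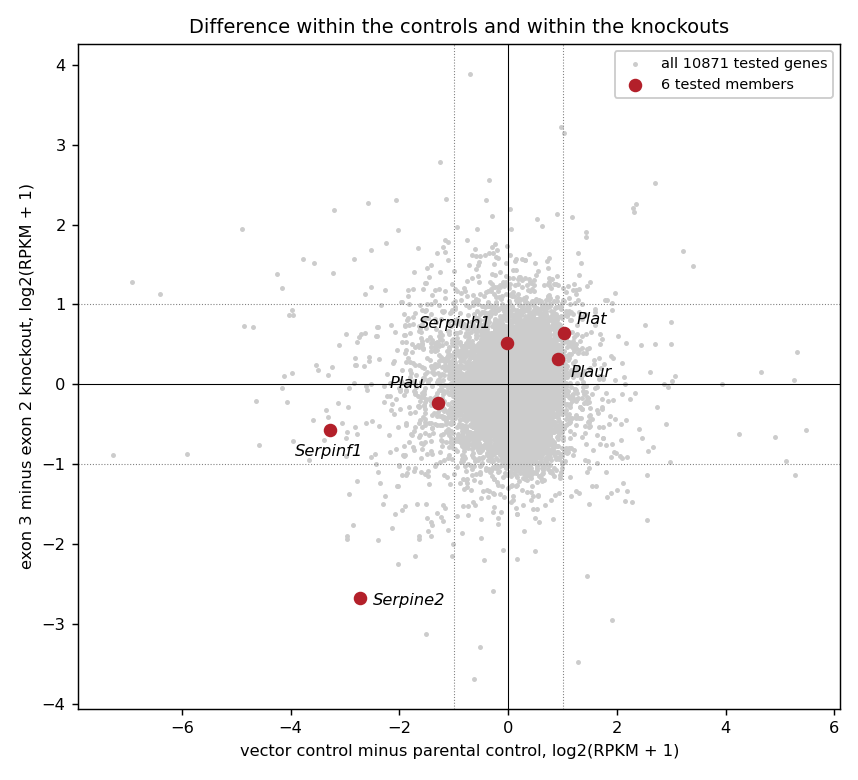
Vector control minus parental line (horizontal) against the difference between the exon 3 and the exon 2 knockout (vertical), in log2(RPKM + 1), with dotted lines at 2-fold. Gray points are the 10871 tested genes and red points the 6 tested members. *Serpine2* is low on both axes (-2.72 and -2.68), and *Serpinf1* mainly on the horizontal one (-3.29).

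Between the knockouts and the controls, the groups overlapped for all 6 tested members. For *Serpine2* this was fixed by its selection, which asked for a high and a low level within each group. Its place in the counts below is therefore no result. Over all tested genes, 31.2% were lower in both knockouts than in both controls and 21.9% were higher in both. At least 2-fold in all 4 knockout and control pairs was reached by 0 of the 6 members, while 1.73% of genes were lower and 0.267% higher to that extent. limma called 0 of the 6 at an adjusted p under 0.05 and 2 genes in all (0.0184%), which were *Bgn* (log2 change -4.27) and *Il1rl1* (-3.31), both named here after their values were seen. At an unadjusted p under 0.05 the counts were 0 of 6 members and 19.1% of genes. The median log2 change of the 6 members was -0.10, with 4 negative and 2 positive values, beside a median of -0.08 and 55.0% negative values over all tested genes. The sign of *Plaur* turned with median ratio or quantile scaling, that of *Serpinh1* with quantile scaling and that of *Serpine2* with a correction for GC content and length. An exact permutation test of 1 gene in this design, 2 libraries in each group, cannot go below a two-sided p of 0.333.

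The other serpins gave 8 genes with a mean of at least 1 RPKM. The table held 61 serpin genes, members included, of which 26 were at 0 in all libraries and 24 were above 0 with a mean under 1. *Serpinf1* and *Serpinh1* together made up between 79.3% (vector control) and 86.8% (exon 3 knockout) of the summed RPKM of all serpins.

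Between an activator and the *Serpine2* inhibitor, the ratio of *Plau* to *Serpine2* in RPKM was 0.692 (parental line), 2.09 (vector control), 2.68 (exon 3 line) and 0.409 (exon 2 line). The ratio of *Plat* to *Serpine2* was 0.471, 7.77, 5.65 and 0.453 in the same order. Each activator was thus above *Serpine2* in the vector control and the exon 3 line and below it in the parental and the exon 2 lines, the order that the *Serpine2* levels themselves set. These are ratios of mRNA levels in RPKM, and protein and protease activity were not measured.

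Of the intracellular serpins of the B clade, *Serpinb6a* measured 140 RPKM (parental line), 169 (vector control), 103 (exon 3 line) and 138 (exon 2 line). *Serpinb9*, an inhibitor of granzyme B, measured 10.8, 22.2, 6.97 and 14.7 RPKM in the same order, and *Serpinb9b* 1.61, 2.85, 1.69 and 7.89 RPKM. *Serpinb6b* ranged from 5.13 to 8.46 RPKM, *Serpinb8* from 2.14 to 3.79 and *Serpini1*, the neuroserpin gene, from 3.80 to 6.23. *Serpinb6a*, *Serpinb6b*, *Serpinb8* and *Serpini1* were lower in both knockouts than in both controls, a count of 4 of 8 beside 31.2% of all genes, and 0 of the 8 passed the test (smallest limma adjusted p = 0.482). Counting did not separate every pair. The exon 2 line was at 0.987 times the parental line for *Serpinb6a* (0.947 to 1.03) and at 0.806 times the vector control for *Serpini1* (0.627 to 1.03). For *Serpinb8* the exon 3 line was at 0.853 times the parental line (0.630 to 1.15). *Serpina3m* measured 3.33 RPKM in the parental line and 3.72 in the exon 3 knockout but 0.0598 in the vector control (2 reads) and 0.237 in the exon 2 knockout (7 reads). Reads of *Serpina3m*, *Serpinb6a*, *Serpinb6b*, *Serpinb9* and *Serpinb9b* could be shared with close copies in the mouse serpin clusters, so their levels are uncertain.

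**Figure D3:**
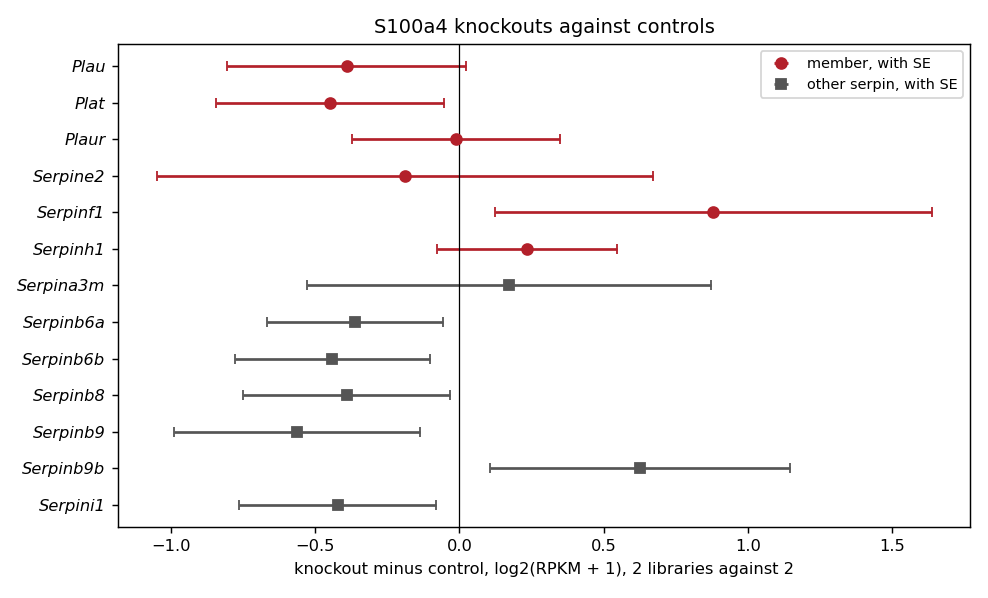
Log2 change between the 2 knockouts and the 2 controls, log2(RPKM + 1) scale, for the 6 tested members (circles) and 7 other serpins (squares), with bars of 1 SE from limma. *Serpinf1* lies at 0.88 and *Plat* at -0.45, and *Serpine2* has the widest bar (SE 0.860).

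Of the other plasminogen system genes, 9 of 21 in the table were tested and 0 passed in either direction (smallest limma adjusted p = 0.377, 0 at an unadjusted p under 0.05). The median log2 change of the 9 was 0.04. *Plg*, plasminogen itself, was at 0.0131 RPKM in the parental line and at 0 in the other libraries, and *Vtn* and *Cpb2* were listed at 0 in all 4. The mRNAs of the annexin A2 complex, a surface receptor for plasminogen and tissue activator, were abundant. *Anxa2* was between 1070 and 1308 RPKM and *S100a10* between 893 and 1186 RPKM, and each had a log2 change of 0.21. *Lrp1*, an endocytic receptor that clears activator and serpin complexes, measured 150 RPKM (parental line), 55.7 (vector control), 60.8 (exon 3 line) and 51.9 (exon 2 line). Between the controls, *Lrp1* and *Mrc2* were at least 2-fold lower and *Eno1* at least 2-fold higher in the vector control.

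Among 7 tested genes of thrombin, the other target of *Serpine2*, and of tissue factor, 0 passed the test (smallest adjusted p = 0.322 by limma, 0 at an unadjusted p under 0.05) and the median log2 change was -0.50. The thrombin receptor gene *F2r* measured 27.8 RPKM (parental line), 18.0 (vector control), 14.4 (exon 3 line) and 16.7 (exon 2 line), with a log2 change of -0.50 (SE 0.332). *Pros1*, the gene of protein S, an anticoagulant cofactor, went from 2.30 and 1.73 RPKM in the parental line and the vector control to 0.945 and 0.702 RPKM in the exon 3 and exon 2 knockouts (-0.72, SE 0.383). Of 9 tested complement genes, 0 passed (smallest adjusted p = 0.310 by limma, 0 unadjusted) and the median was 0.36, with *C1rl* at -0.69 and *Cfb* at 0.44. *C1ra* and *C1s1*, the genes of the proteases that the C1 inhibitor blocks, were read at 11.1 to 23.6 RPKM and 4.57 to 17.3 RPKM while *Serping1* was near 0.

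The genes listed for collagen folding, most of them chaperones and enzymes of the endoplasmic reticulum, were all 16 tested, and 0 passed (smallest limma adjusted p = 0.145), with 2 higher and 2 lower at an unadjusted p under 0.05 and a median of 0.18. *Fkbp14* measured 12.2 RPKM (parental line), 12.1 (vector control), 6.16 (exon 3 line) and 4.20 (exon 2 line), with a log2 change of -1.11 (SE 0.337). *Hsp90b1* had a log2 change of -0.75 and *Kdelr1* one of 0.67. *P4hb*, a subunit of prolyl 4-hydroxylase, had the order of *Serpinh1* between the knockouts, with 1576 RPKM in the exon 3 and 735 in the exon 2 line. The collagen gene *Col1a1* itself ranged from 670 RPKM in the parental line to 6.93 in the vector control, with 54.3 and 24.2 in the exon 3 and exon 2 knockouts, while *Serpinh1* was within 1.02 times between the controls.

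Of 5 tested genes described as receptors of the *Serpinf1* product, 0 passed (smallest limma adjusted p = 0.188), with 1 higher and 1 lower at an unadjusted p under 0.05. *Pnpla2*, a triglyceride lipase, measured 20.6 RPKM (parental line), 26.9 (vector control), 42.5 (exon 3 line) and 44.0 (exon 2 line), with a log2 change of 0.85 (SE 0.306). *Lrp6*, a Wnt co-receptor, had a log2 change of -0.91 (SE 0.342). *Rpsa*, the gene of ribosomal protein SA, also described as a laminin receptor, had one of 0.62 (SE 0.316) at 9.98 to 17.5 RPKM. Whether reads of *Rpsa* were shared with copies elsewhere in the genome was not tested. The summed mesenchymal markers, 4713 RPKM in the parental line against 2494 in the vector control, and the summed epithelial markers, 130 against 34.4 RPKM, both moved with *Serpinf1* between the controls, and their part in its level was not tested. The epithelial sum was nearly all *Krt8* (69.0 against 27.5 RPKM) and *Krt18* (60.2 against 6.10 RPKM). *Epcam* and *Cdh1*, both under 1 RPKM, were slightly higher in the vector control. The knockouts had mesenchymal sums of 2206 (exon 3) and 2361 RPKM (exon 2), below the vector control, and epithelial sums of 107 and 74.9 RPKM, above it. *Vim* was the largest part of each mesenchymal sum. *Vim* and *Col3a1* were below the vector control in both knockouts, while *Col1a1*, *Col1a2*, *Fn1* and *Pdgfrb* were above it in both.

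The profiles nearest to that of *Serpine2* over the 4 libraries, by Euclidean distance of the log2(RPKM + 1) values centered on each gene's mean, were those of *Ppl* (0.564), *Adamts1* (0.583), *Slc4a4* (0.601), *Lama5* (0.663) and *Tmem200a* (0.814). *Adamts1* measured 109 RPKM (parental line), 13.1 (vector control), 17.9 (exon 3 line) and 69.6 (exon 2 line). The members were farther away, *Serpinf1* at 1.87, *Plau* at 2.01, *Serpinh1* at 2.98, *Plaur* at 3.33 and *Plat* at 3.55. With 4 libraries such nearness is a description of their order.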

How the data were processed

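The authors deposited 1 RPKM value per gene and library, with no log scale. The submitters' processing notes name CASAVA 1.8, GSNAP and GRCm38; the gene model and counting rule are not given in the sources used here. The labels name a stranded total RNA kit and the study's methods an RNA sample kit. All 4 columns were matched to a title. In each library the smallest often recurring product of RPKM and GENCODE M21 coding length was taken as 1 read, which gave the library's total. Each gene then took a length that made its reads whole in all 4 libraries, with annotated coding lengths tried first. Whole reads were recovered in this way, with a tolerance of 0.001 reads, for 99.99% of genes above 0. The length equalled an annotated coding length for 59.9% of these genes and for 5 members, and was longer for *Plat* (1974 bases against 1680) and *Plaur* (1050 against 984). The totals behind RPKM were between 22472024 and 31235456 reads. RPKM thus scales with the length used for each gene, and intervals and limits from reads cover counting error only. PCR duplicates cannot be told apart.

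Groups came from the titles. Each sample is 1 library of 1 line, so p-values measure the spread between lines. Values were analysed as log2(RPKM + 1), which understates changes of low genes, for 10871 genes with mean RPKM of at least 1. limma 3.58.1 (R 4.3.3) with an intensity trend compared 2 knockouts with 2 controls, with no covariates and Benjamini-Hochberg adjustment over all tested genes at 0.05. The script was run on simulated data with large changes and a small spread, which checks the code and not how the fit performs at the spread between these lines. Read ratios have exact binomial intervals and single values Wilson intervals, at 95% (scipy 1.17.1, Python 3.11.15). The members and lists were chosen with earlier results of these data known. Named were all members, *S100a4*, serpins with mean RPKM of at least 1, at most 3 genes per other list with the largest change of one sign over the 4 pairs, and the 5 profiles nearest to *Serpine2*. Of these, 1 gene is counted in its lists and sums but its own values are not reported here. Other genes named (*Lrp1*, *Mrc2*, *Eno1*, *P4hb*, *Col1a1*, *C1ra*, *C1s1*, genes near 0) were chosen after their values were seen. Alternatives were another pseudocount, scaling, filter, trend, prior, a GC and length correction, 3-fold, leaving out each library and, chosen after seeing the data, voom on the recovered reads. Indels at the guide sites were not analysed here.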

Additional observations from a re-analysis of the deposited data

Results flagged for a closer look

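*Serpinh1* had its knockouts on opposite sides of both controls, with 1215 RPKM in the exon 3 knockout, above the parental line (871.5) and the vector control (854), and 847 RPKM in the exon 2 knockout, below both. The difference between the knockouts was 0.52 on the log2(RPKM + 1) scale and was not tested. The exon 2 knockout and the vector control were within counting error of each other, and 857 of the tested genes (7.88%) had their knockouts on opposite sides in the same way.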

How the results depend on the processing

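The count of genes called, 2 as reported, was 1 with a pseudocount of 0.1 or quantile normalization, 0 with median ratio scaling, the GC and length correction, no filter or voom, 32 with a filter at mean RPKM of 5, 285 with a robust prior, and 3 to 788 when 1 library was left out (788 without the parental line, 451 without the vector control). Listed genes called numbered 0 under every alternative except without the parental line or the vector control, the fits that also called the most genes in all. In these fits a lone library is assumed to vary like the other group. With *Serpine2* overlapping by its selection, members whose groups do not overlap numbered 0 of 6 under the other pseudocount, both scalings and the GC and length correction. They numbered 4 without the parental line or the vector control and 2 without either knockout, where an arm of 1 library overlaps less by construction and 72.0% to 79.2% of all tested genes did not overlap, against 53.2% with all 4 libraries. Members 2-fold apart in every pair numbered 1 without the parental line, against 8.58% of all genes, and 0 under the other alternatives. *Serpine2* differed by -2.72 from the parental line to the vector control and by -2.99 after the GC and length correction. Its log2 change of -0.19 became 0.14 after that correction, 1.17 without the parental line, 1.15 without the exon 3 knockout and -1.55 without the vector control. *Serpinf1* changed by 2.52 without the parental line and by -0.76 without the vector control. limma called *Serpine2* without the vector control and *Serpinf1* without the parental line, which is no test of genes chosen on these columns. Leaving out 1 library gave *Plat* -0.96 to 0.0658 (without the vector control), *Plau* -1.03 to 0.25 (without the parental line), *Plaur* -0.47 to 0.45 (without the vector control; 0.15 without the exon 2 knockout) and *Serpinh1* -0.0262 (without the exon 3 knockout) to 0.49. *Plaur* was 0.0799 with median ratio scaling, 0.0433 with quantile normalization and 0.00168 with voom, and *Serpinh1* -0.0188 with quantile normalization. Median ratio scaling moved the median change of all genes from -0.08 to 0.01. Of 131 values under alternatives, 97 kept their direction and side of the threshold or, for counts and untested differences, stayed close to the value reported, 19 counts or differences moved further, 13 changes reversed and 2 passed the threshold. No paired analysis was possible because the labels carry no replicate numbers shared by the groups.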
